A study of Mus musculus with 6 samples.

Results

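Macrophage and monocyte genes were followed in left ventricular tissue as a panel of 32 genes, chosen by symbol from the 34945 gene symbols of the deposited count table, and all 32 were present in it. The study profiled 3 4SA-Rad knock-in mice and 3 wild-type mice by RNA sequencing of total RNA from left ventricle, with a stranded total-RNA library kit. In the knock-in allele, serines of the small GTP-binding protein Rad, a brake on the calcium channels of heart muscle, are replaced by alanine. Strain was labelled C57BL/6N and tissue myocardium in both genotypes, no treatment was listed, and the labels used here state no age. The question put to the panel was whether genes of macrophages in the ventricle differed between the genotypes, and whether those of long-lived resident macrophages differed in the same direction as those of monocytes recruited from blood.

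The heart holds macrophages that settle before birth and renew themselves in place, and others that are replaced by circulating monocytes. Resident cells in the mouse heart are recognised by the uptake receptors Folr2, Lyve1, Timd4, Mrc1 and Cd163, while monocytes and the macrophages they give rise to carry the chemokine receptor Ccr2, and Cx3cr1 is carried by patrolling monocytes and many monocyte-derived cells. Survival of most tissue macrophages depends on the receptor Csf1r, and the identity of the lineage on the transcription factor encoded by Spi1. In bulk tissue, fewer macrophages and less RNA per macrophage cannot be told apart.

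Libraries held 35259459 to 39627397 estimated counts in knock-in mice and 24761124 to 32669182 in wild-type mice, so every knock-in library was the deeper. Of these counts 53.1% to 56.9% came from the mitochondrial genome, and 1 count corresponded to 0.0248 to 0.0390 CPM, the depth-scaled count used throughout, scaled by the trimmed mean of M-values (TMM). Heart muscle transcripts dominated as the tissue label implies, with Myh6 at 18688 to 18986 CPM in knock-in and 17421 to 18657 CPM in wild-type mice. Rrad, which encodes Rad, was at 42.0 ± 14.9 CPM in knock-in and 35.6 ± 7.94 CPM in wild-type (SD, n = 3 each), and its total count does not check the allele. Nnt, a mitochondrial gene of which C57BL/6J but not C57BL/6N mice carry a deletion, was at 680 ± 73.8 CPM in knock-in and 272 ± 9.999 CPM in wild-type (log2 fold change 1.32 ± 0.07 SE, edgeR adjusted p = 2.02e-05). Substrain background and the Rad allele therefore cannot be told apart for any difference given here.

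Knock-in ventricles had less of most macrophage transcripts that differed, and more of both recruited-monocyte receptors. Of the 32 members 31 were abundant enough to test, 10 fell, 2 rose and 19 did not pass edgeR's quasi-likelihood test at a Benjamini-Hochberg adjusted p of 0.05. The fall covered 32.3% of tested members, against 5.01% of all 13485 genes tested, and the rise 6.45%, against 4.00%, with 9.01% of all genes called in either direction. Over all genes, 540 rose and 675 fell, and with library size alone as the scaling 227 rose and 1177 fell. Those that fell were Lyve1, Csf1r, Adgre1, Itgam, Fcgr3, C1qa, C1qb, C1qc, Lyz2 and Cbr2, and those that rose were Ccr2 and Cx3cr1. The median log2 fold change (knock-in minus wild-type) was -0.29 over the tested members and 0.00 over all genes, and it was also -0.29 when the member set aside for low counts, Trem2, was put back in a fit with no filter. CPM ranges of the genotypes did not overlap for 14 tested members with knock-in below and 2 with knock-in above, against 15.1% and 14.3% of all genes and 29.4% in either direction.

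**Figure D1:**
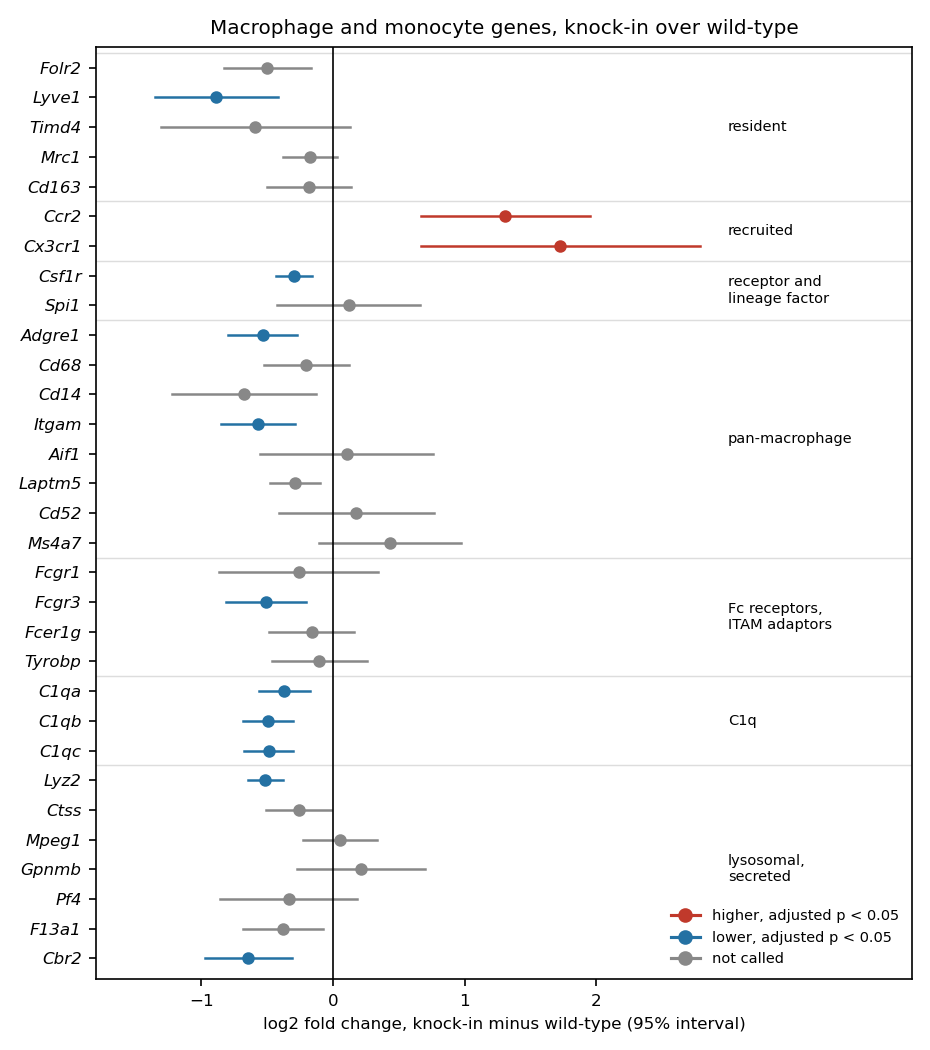
Log2 fold change, knock-in minus wild-type, of the 31 tested members with 95% intervals, grouped by role, with rises in red, falls in blue and members that did not pass in grey. Ccr2 and Cx3cr1 lie above 1, while the 10 members that fell lie between -0.89 and -0.30.

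Promoters of 5 members that changed, a selection made after their values were seen, are shown because the C1q genes and Lyz2 fell together while Ccr2 and Cx3cr1 rose, and because the factor encoded by Spi1 binds purine-rich sites built on GGAA. The windows are from RefSeq on GRCm38.p6, run 5′ to 3′ on the gene's strand from 250 bases before to 50 bases after its start, and 24 of the 32 members had one. Capitals mark GAGGAA or AGGAAGT, on either strand, and the motifs can overlap each other.
C1qb (chr4:136886151-136886450, minus strand): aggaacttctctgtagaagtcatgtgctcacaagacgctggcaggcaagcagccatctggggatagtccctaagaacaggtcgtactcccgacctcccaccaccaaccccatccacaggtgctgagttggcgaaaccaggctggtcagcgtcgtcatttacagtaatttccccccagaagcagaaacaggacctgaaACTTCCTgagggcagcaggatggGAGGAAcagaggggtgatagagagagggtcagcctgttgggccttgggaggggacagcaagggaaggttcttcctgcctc
C1qc (chr4:136892865-136893164, minus strand): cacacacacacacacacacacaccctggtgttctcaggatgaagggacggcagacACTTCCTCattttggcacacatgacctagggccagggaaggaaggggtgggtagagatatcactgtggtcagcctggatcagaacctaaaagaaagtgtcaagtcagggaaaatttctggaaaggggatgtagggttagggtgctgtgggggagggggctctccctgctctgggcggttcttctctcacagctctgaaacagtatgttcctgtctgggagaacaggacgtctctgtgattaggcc
Lyz2 (chr10:117282223-117282522, minus strand): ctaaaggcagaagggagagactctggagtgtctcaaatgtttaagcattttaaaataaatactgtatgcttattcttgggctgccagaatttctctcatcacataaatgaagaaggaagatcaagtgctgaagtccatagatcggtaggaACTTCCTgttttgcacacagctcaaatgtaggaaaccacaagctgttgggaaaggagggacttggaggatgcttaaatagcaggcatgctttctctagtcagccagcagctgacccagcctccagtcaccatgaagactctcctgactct
Ccr2 (chr9:124101933-124102232, plus strand): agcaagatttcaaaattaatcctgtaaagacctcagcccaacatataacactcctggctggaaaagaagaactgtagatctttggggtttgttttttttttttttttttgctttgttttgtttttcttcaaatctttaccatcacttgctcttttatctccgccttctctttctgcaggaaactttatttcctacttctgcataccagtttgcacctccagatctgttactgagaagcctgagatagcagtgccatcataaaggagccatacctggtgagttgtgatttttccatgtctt
Cx3cr1 (chr9:120068247-120068546, minus strand): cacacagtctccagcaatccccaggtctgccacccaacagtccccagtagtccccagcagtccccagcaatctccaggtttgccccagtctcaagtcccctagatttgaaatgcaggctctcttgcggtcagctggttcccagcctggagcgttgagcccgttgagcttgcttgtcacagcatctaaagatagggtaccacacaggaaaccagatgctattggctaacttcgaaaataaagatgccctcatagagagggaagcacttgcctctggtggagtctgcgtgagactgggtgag

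C1qb and C1qc each held 1 match to GAGGAA and 1 to AGGAAGT, in C1qc as a single overlapping stretch, and Lyz2 held 1 match to AGGAAGT. Neither motif was present in the windows of Ccr2 and Cx3cr1. These windows follow RefSeq starts, whereas GENCODE M21 starts Ccr2 at 124101950 and, on the minus strand, Cx3cr1 at 120069879 and C1qc at 136893065. By those positions the Ccr2 and C1qc windows lie mostly, and the Cx3cr1 window wholly, inside the gene. Sequence further upstream of the GENCODE starts was not searched, so Ccr2 and Cx3cr1 cannot be set against those that fell. Of the 10 members that fell 6 had a window, and all 6 held at least 1 of the motifs. C1qa, Lyve1, Csf1r and Adgre1 had no window. Of the members that did not pass, 15 had a window and 10 of these held at least 1 of the motifs. Over the panel, GAGGAA occurred in 15 of 24 members with a window (62.5%), against 31.3% of 27025 genes, and AGGAAGT in 9 of 24 (37.5%), against 10.7%. A match of letters is not evidence of binding.

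Among the resident genes, 1 of 5 passed the test, and all 5 had log2 fold changes below 0, with a median of -0.50. Lyve1, a hyaluronan receptor, measured 10.5, 5.68 and 6.54 CPM in the knock-in mice, given here and below as replicates 1, 2 and 3, against 10.9, 16.7 and 14.0 CPM in the wild-type mice. The genotypes did not overlap, although knock-in replicate 1 was close to wild-type replicate 1. The log2 fold change was -0.89 ± 0.21 (SE, edgeR adjusted p = 0.0284). Lyve1 did not pass with DESeq2 (adjusted p = 0.0687) or with robust dispersions (edgeR adjusted p = 0.155), and it passed in only 2 of the 6 leave-one-out fits, without knock-in replicate 1 or wild-type replicate 1, with log2 fold changes from -1.19 to -0.72.

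Folr2, a folate receptor that marks resident macrophages, was at 3.61, 3.31 and 2.83 CPM in knock-in mice, against 3.82, 5.09 and 4.76 CPM in wild-type mice. These ranges did not overlap either, but Folr2 did not pass the test (log2 fold change -0.50 ± 0.15, edgeR adjusted p = 0.0638). Timd4, which binds phosphatidylserine on dying cells, was at 1.27, 0.691 and 0.917 CPM in knock-in mice, against 1.09, 2.09 and 1.11 CPM in wild-type mice. The genotypes overlapped, with wild-type replicate 2 far above the other mice, and the interval of the log2 fold change ran from -1.31 to 0.13 (edgeR adjusted p = 0.294).

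The mannose receptor Mrc1 was at 18.9, 15.3 and 15.7 CPM in knock-in mice, against 20.6, 18.2 and 17.6 CPM in wild-type mice. The haemoglobin scavenger receptor Cd163 was at 10.7, 7.20 and 9.20 CPM in knock-in mice, against 11.2, 10.9 and 8.63 CPM in wild-type mice. Both overlapped between genotypes and did not pass (edgeR adjusted p = 0.283 and 0.473). Their 95% intervals on the log2 scale were -0.38 to 0.03 for Mrc1 and -0.50 to 0.13 for Cd163, which leaves out falls as large as that fitted for Lyve1. Without wild-type replicate 2 the median over the resident genes was -0.20.

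Both recruited-cell receptors rose. Ccr2, the receptor through which monocytes leave the bone marrow towards Ccl2, was at 1.39, 2.74 and 1.71 CPM in knock-in mice, against 0.779, 0.894 and 0.676 CPM in wild-type mice, from 20 to 95 counts per library. Every knock-in mouse was above every wild-type mouse, with knock-in replicate 2 the highest. The log2 fold change of Ccr2 was 1.31 ± 0.29 (2.48-fold, edgeR adjusted p = 0.0223).

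Cx3cr1, the fractalkine receptor, was at 0.970, 2.74 and 1.39 CPM in knock-in mice, against 0.896, 0.447 and 0.246 CPM in wild-type mice, from 8 to 95 counts per library. The ranges were separated only narrowly, by 0.970 CPM in knock-in replicate 1 against 0.896 CPM in wild-type replicate 1. Its log2 fold change was 1.73 ± 0.48 (3.31-fold, edgeR adjusted p = 0.0495). Leaving out knock-in replicate 2 gave Ccr2 a log2 fold change of 0.99 and Cx3cr1 one of 1.21, and neither passed (edgeR adjusted p = 0.0659 and 0.163). Each passed in 2 of the 6 leave-one-out fits, Ccr2 without knock-in replicate 1 or wild-type replicate 2 and Cx3cr1 without knock-in replicate 1 or wild-type replicate 1. Cx3cr1 also did not pass with limma-voom (adjusted p = 0.0617) or robust dispersions (edgeR adjusted p = 0.0899).

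**Figure D2:**
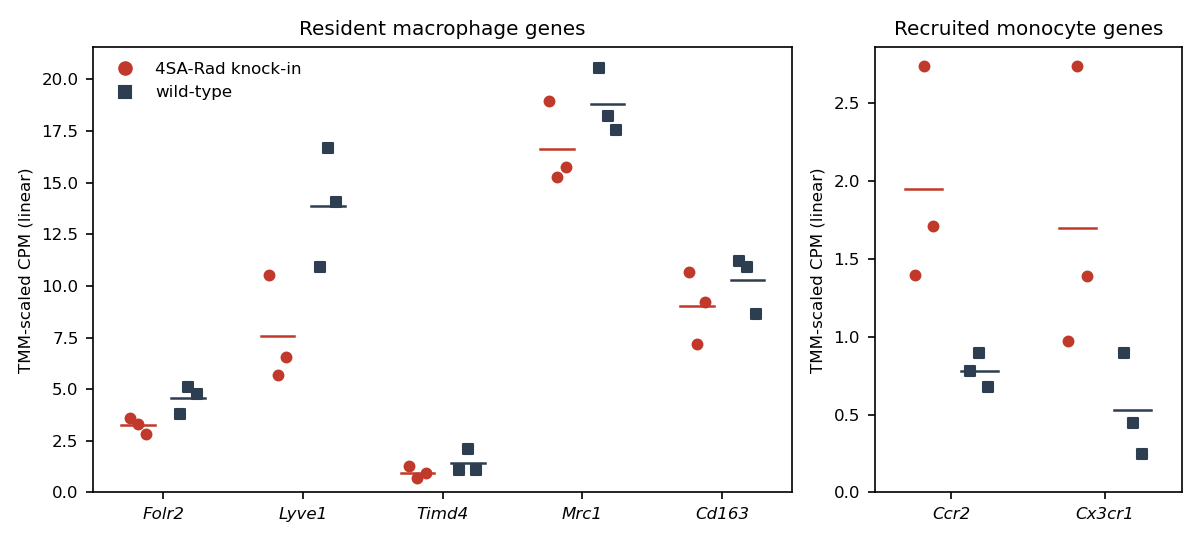
TMM-scaled CPM of the resident and recruited genes in each mouse, knock-in as red circles left of wild-type as dark squares, with horizontal bars at the means of 3 mice and linear axes from 0. Knock-in mice lie below wild-type mice for Folr2 and Lyve1 and above them for Ccr2 and Cx3cr1, and the groups overlap for Timd4, Mrc1 and Cd163.

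Ratios between genes of the same library do not depend on how libraries are scaled. For every 100 counts of the resident genes together there were 5.25, 17.0 and 8.80 counts of Ccr2 and Cx3cr1 in knock-in mice, against 3.52, 2.53 and 2.00 in wild-type mice. All knock-in mice were above all wild-type mice, with knock-in replicate 2 apart from the others. Relative to 100 counts of Csf1r, Ccr2 stood at 7.20, 15.3 and 9.16 in knock-in mice and 3.24, 3.95 and 3.05 in wild-type mice. Lyve1 stood at 54.3, 31.7 and 35.1 per 100 Csf1r counts in knock-in mice, against 45.3, 73.6 and 63.4 in wild-type mice, and here the genotypes overlapped.

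The mouse with the highest recruited-cell receptors, knock-in replicate 2, also had the lowest CPM of all 6 mice for Lyve1, Timd4, Mrc1 and Cd163. Knock-in replicate 1, with the lowest Ccr2 and Cx3cr1 of its genotype, had the highest values of its genotype for all 5 resident genes. These 7 genes come from the same libraries, so this is a description of the mice.

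Ccr2 lies on chromosome 9 from 124101950 to 124113557 (GRCm38, GENCODE M21), and Cx3cr1 on the same chromosome from 119901616 to 120069879. Chemokine receptor genes resemble each other in sequence, so the division of counts between Ccr2 and its relatives is uncertain. Ccrl2, a neighbour looked up after the values were seen, fell (-0.62 ± 0.17, edgeR adjusted p = 0.0452).

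The receptor gene Csf1r fell, and Spi1, which encodes the factor that specifies the lineage, did not pass. Csf1r was at 19.4, 17.9 and 18.7 CPM in knock-in mice, against 24.1, 22.6 and 22.1 CPM in wild-type mice, without overlap (log2 fold change -0.30 ± 0.06, edgeR adjusted p = 0.0175). Its exons share 873 bases with Hmgxb3 on the other strand, and whether counting used strand is not stated. Hmgxb3 itself did not pass (log2 fold change -0.01 ± 0.08, edgeR adjusted p = 0.94). Spi1, read from 27 to 67 counts, was at 1.55 ± 0.343 CPM in knock-in and 1.41 ± 0.339 CPM in wild-type (n = 3 each), with an interval from -0.43 to 0.66 on the log2 scale (edgeR adjusted p = 0.811).

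Of the 8 genes shared widely by macrophages, 2 fell and 6 did not pass. Adgre1, an adhesion receptor used as the standard mouse macrophage marker, was at 4.12, 3.43 and 3.59 CPM in knock-in mice, against 5.49, 5.63 and 5.01 CPM in wild-type mice (log2 fold change -0.53 ± 0.12, edgeR adjusted p = 0.0223). Itgam, the alpha chain of a complement-receptor integrin, was at 3.64, 2.91 and 3.10 CPM in knock-in mice, against 4.91, 4.499 and 4.88 CPM in wild-type mice (-0.57 ± 0.13, edgeR adjusted p = 0.0232). Neither gene overlapped between the genotypes. Exons of Itgam share 3450 bases with Gm49368, a protein-coding gene on the same strand that had 0 to 2 counts per library, so the division of counts between the pair is uncertain. Itgam is also carried by neutrophils, whose markers are given with the other cell types.

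The endotoxin co-receptor Cd14 and the lysosomal membrane protein Laptm5 had knock-in mice below all wild-type mice but did not pass (log2 fold changes -0.68 ± 0.25 and -0.29 ± 0.08, edgeR adjusted p = 0.12 and 0.0606). Cd68, a lysosomal glycoprotein, was at 4.07 ± 0.447 CPM in knock-in and 4.66 ± 0.782 CPM in wild-type, and its ranges overlapped (-0.20 ± 0.15). Fold changes were above 0 for Aif1, an actin-binding protein (0.11 ± 0.30), Cd52, a small surface glycoprotein that lymphocytes also carry (0.18 ± 0.26), and Ms4a7 (0.44 ± 0.24), none of which passed. The genes with values above 0 were read from 18 to 52 counts per library.

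Fc receptors bind antibody-coated material and signal through adaptors that carry an immunoreceptor tyrosine-based activation motif (ITAM). Among 4 tested genes of this kind 1 fell. Fcgr3, a low-affinity receptor for IgG, was at 5.24, 4.38 and 4.41 CPM in knock-in mice, against 5.57, 6.47 and 7.83 CPM in wild-type mice (log2 fold change -0.51 ± 0.14, edgeR adjusted p = 0.0449). The gap was small, with knock-in replicate 1 just under wild-type replicate 1. Fcgr3 resembles Fcgr2b in sequence, and Fcgr2b, the inhibitory IgG receptor, also fell (-0.45 ± 0.08, edgeR adjusted p = 0.0106), so the division of counts between the pair is uncertain.

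The signalling adaptors overlapped between the genotypes. Fcer1g was at 3.19 ± 0.443 CPM in knock-in and 3.55 ± 0.337 CPM in wild-type, and Tyrobp at 2.89 ± 0.375 and 3.11 ± 0.456 CPM. Fcgr1, the high-affinity IgG receptor, was read from 16 to 27 counts and did not pass (edgeR adjusted p = 0.604). Trem2, a lipid-sensing receptor that signals through Tyrobp, had 7 to 11 counts per library and was not tested, at 0.273, 0.202 and 0.248 CPM in knock-in mice and 0.273, 0.268 and 0.338 CPM in wild-type mice.

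All 3 chains of the complement recognition molecule C1q fell. Macrophages are the main source of C1q in mouse tissues, and its genes lie side by side on chromosome 4, with C1qb from 136880129 to 136886187, C1qc from 136889804 to 136893065 and C1qa from 136895917 to 136898803 (GRCm38, minus strand). C1qa was at 17.3, 15.6 and 13.9 CPM in knock-in mice, against 18.6, 21.4 and 20.1 CPM in wild-type mice (log2 fold change -0.37 ± 0.09, edgeR adjusted p = 0.0278). C1qb was at 15.2, 12.5 and 12.1 CPM in knock-in mice, against 18.2, 19.3 and 18.4 CPM in wild-type mice (-0.49 ± 0.09, edgeR adjusted p = 0.00889).

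C1qc was at 11.7, 10.6 and 11.8 CPM in knock-in mice, against 15.2, 17.8 and 14.9 CPM in wild-type mice (-0.49 ± 0.08, edgeR adjusted p = 0.0079). None of the chains overlapped between genotypes. C1qc was called in all 6 leave-one-out fits, C1qb in 5 and C1qa in 2. The 3 genes shared the direction and similar sizes of fold change, with intervals from -0.69 to -0.18 between them.

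Of 7 lysosomal and secreted products, Lyz2 and Cbr2 fell and 5 did not pass. Lyz2, the lysozyme gene of macrophages and the most abundant member, was at 46.2, 39.4 and 42.3 CPM in knock-in mice, against 61.5, 59.6 and 61.7 CPM in wild-type mice. The wild-type mice lay close together and well above all knock-in mice, and the log2 fold change of -0.51 ± 0.06 had the smallest adjusted p of the panel (edgeR, 0.00129). Its relative Lyz1, with which reads can be confused, had 6 to 19 counts. Cbr2, a carbonyl reductase, was at 5.12, 3.40 and 4.29 CPM in knock-in mice, against 7.36, 5.99 and 6.70 CPM in wild-type mice (-0.64 ± 0.15, edgeR adjusted p = 0.0255).

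**Figure D3:**
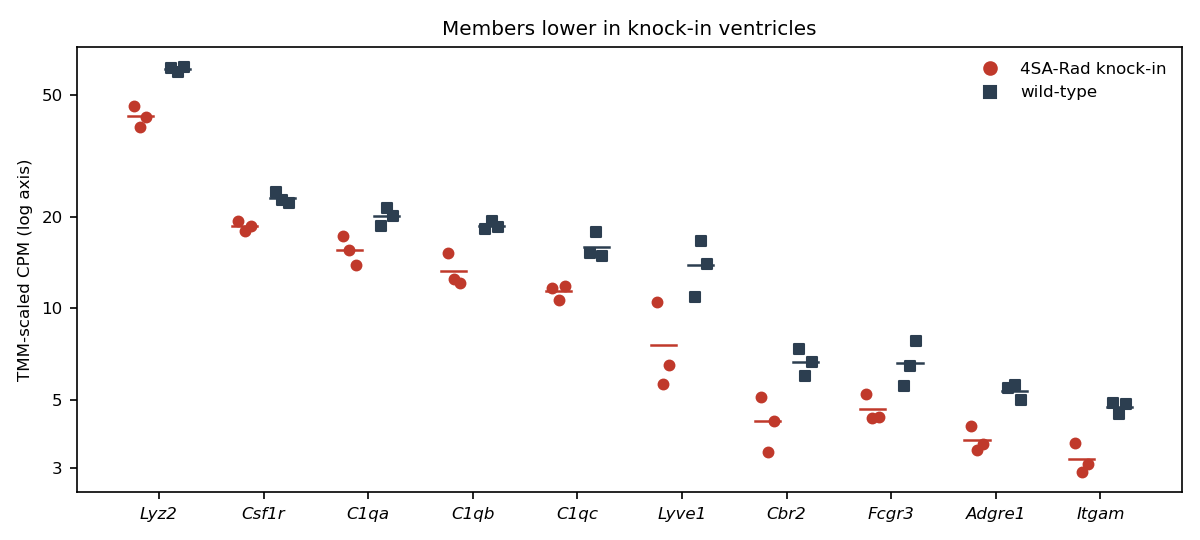
TMM-scaled CPM, on a log axis, of the 10 members that fell, in each mouse, knock-in as red circles left of wild-type as dark squares, with bars at the means of 3 mice. For each gene all knock-in mice lie below all wild-type mice, with the narrowest gaps at Lyve1 and Fcgr3.

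F13a1, the catalytic chain of coagulation factor XIII, was at 20.03, 12.2 and 16.8 CPM in knock-in mice, against 20.9, 21.3 and 21.5 CPM in wild-type mice. Knock-in mice were all below wild-type mice but spread widely, and F13a1 did not pass (log2 fold change -0.38 ± 0.14, edgeR adjusted p = 0.117). Pf4, a chemokine of platelets that resident macrophages also make, was at 4.00, 1.90 and 2.50 CPM in knock-in mice, against 3.12, 3.58 and 3.84 CPM in wild-type mice. In knock-in replicate 1, where Pf4 was highest, the 7 platelet markers summed to 11.4 CPM, against 2.77 to 4.85 CPM in the other 5 mice. Ctss, the protease cathepsin S (-0.26 ± 0.11), Mpeg1, a pore-forming protein of phagocytes (0.05 ± 0.13), and Gpnmb, a glycoprotein of lipid-laden macrophages (0.22 ± 0.22), did not pass and overlapped.

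Compared per kilobase of exon, which levels between genes require, Lyz2 was also the highest member, at 32.4 CPM per kb in knock-in and 46.3 in wild-type. The C1q genes followed, from 9.46 to 14.96 CPM per kb in knock-in and 13.3 to 19.3 in wild-type. Lyve1 (2.62 in knock-in, 4.79 in wild-type) and Mrc1 (3.10 and 3.50) lay near Csf1r (3.82 and 4.70). Ccr2 (0.288 in knock-in, 0.116 in wild-type) and Cx3cr1 (0.377 and 0.118) stayed below every resident gene per kb in both genotypes, Timd4 (0.442 and 0.657) being the nearest. Summed over the panel, levels were 242, 203 and 209 CPM in knock-in mice, against 277, 286 and 279 CPM in wild-type mice, and 196, 163 and 167 against 216, 227 and 218 CPM without Lyz2.

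How many members passed depended on single libraries. Leaving out 1 knock-in mouse gave 15 members lower when it was replicate 1, 3 when it was replicate 2 and 2 when it was replicate 3. Leaving out 1 wild-type mouse gave 7 members lower when it was replicate 1, 6 for replicate 2 and 5 for replicate 3. Both recruited receptors rose when knock-in replicate 1 was left out, 1 rose when wild-type replicate 1 or 2 was, and neither did when wild-type replicate 3 or knock-in replicate 2 or 3 was. Over all genes the calls of these fits ran from 136 higher and 202 lower without knock-in replicate 3 to 601 higher and 777 lower without knock-in replicate 1. Lyz2 and C1qc fell in all 6 of these fits, C1qb in 5 and Csf1r in 3. Lyve1, Adgre1, Itgam, Fcgr3, C1qa and Cbr2 each fell in only 2.

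**Figure D4:**
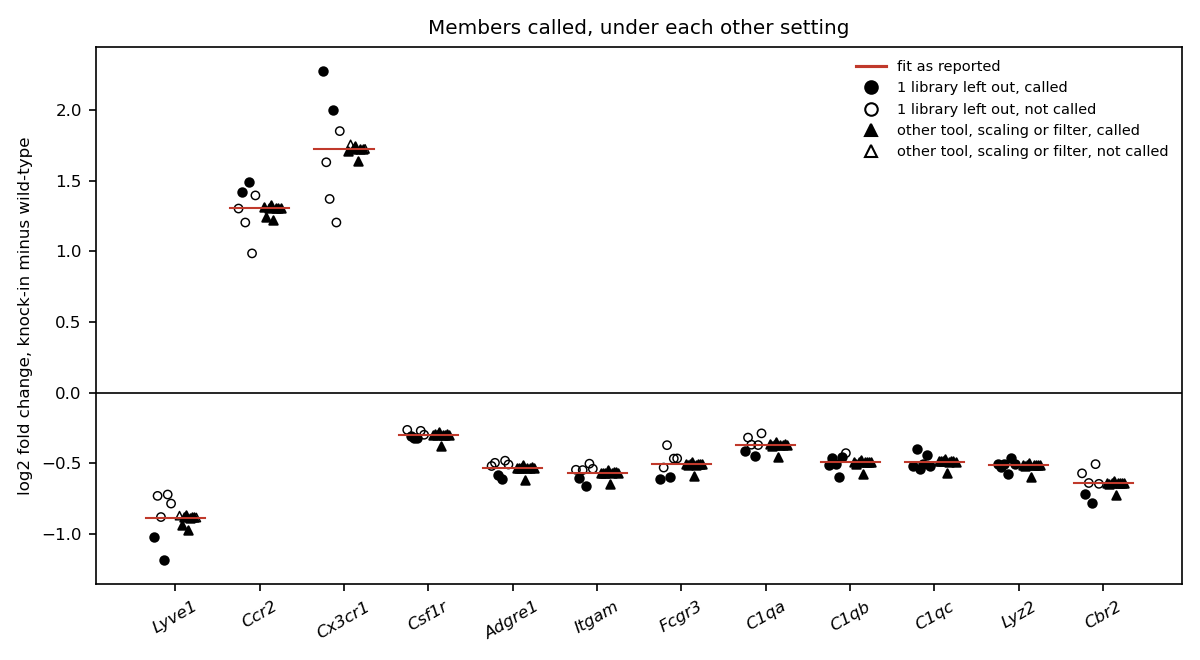
Log2 fold change of the 12 members called, with a red line for the value reported, circles for fits that left out 1 library and triangles for other tools, scalings and filters, filled where the member was called. No point lies on the other side of 0 from its line.

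Some monocyte chemokines fell, and no macrophage growth factor passed. Of 8 tested macrophage growth factors and monocyte chemokines, 3 fell, none rose and 5 did not pass (median log2 fold change -0.53). Ccl2, the ligand of Ccr2, was at 0.606, 0.807 and 0.446 CPM in knock-in mice, against 1.52, 3.13 and 3.07 CPM in wild-type mice (-2.08 ± 0.32, edgeR adjusted p = 0.00483). So the ligand was lower in the same mice in which its receptor was higher. Ccl7, a related ligand, fell by 2.13 ± 0.45 and Ccl6 by 0.86 ± 0.19 on the log2 scale, while Cx3cl1, the ligand of Cx3cr1 (0.02 ± 0.12), and the Csf1r ligands Csf1 (-0.06 ± 0.15) and Il34 (-0.12 ± 0.26) did not pass.

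Among 14 other tissue macrophage genes tested, 4 fell, none rose and 10 did not pass, with 13 of the 14 fold changes below 0 (median -0.34). Id3, a regulator of macrophage development (-0.36 ± 0.07), the scavenger receptor gene Stab1 (-0.32 ± 0.07), Fcna (-1.26 ± 0.31) and the uptake receptor gene Mertk (-0.39 ± 0.11) fell. Id3 and Stab1 are also made by endothelial cells, of whose 8 markers 2 fell, Esam (-0.38 ± 0.06) and Tie1 (-0.22 ± 0.05), and 6 did not pass. The part of endothelial cells in these values was not tested.

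Other monocyte genes did not follow Ccr2 and Cx3cr1. Of 9 tested 3 fell, none rose and 6 did not pass (median -0.17). Ly6c2, a surface protein of classical monocytes, was at 2.48, 1.67 and 2.33 CPM in knock-in mice, against 3.00, 3.52 and 4.09 CPM in wild-type mice (-0.71 ± 0.18, edgeR adjusted p = 0.0395). It was therefore lower in every knock-in mouse than in every wild-type mouse, the opposite order to Ccr2. Ly6c2 is nearly identical to Ly6c1, which endothelium expresses, so the division of counts between them is uncertain. Nr4a1, needed by patrolling monocytes but also induced in many stimulated cells, fell (-2.04 ± 0.26), as did Ace (-0.55 ± 0.08), which endothelium also makes. Plac8, Chil3, Treml4 and Cd177 had too few counts to test, and the leukocyte surface genes Itgal (1.22 ± 0.35) and Spn (0.95 ± 0.29) did not pass (edgeR adjusted p = 0.0578 and 0.0698).

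Other complement genes also included falls, 4 of 10 tested, with none higher and 6 not passing (median -0.23). C7, a terminal component, fell by 1.58 ± 0.15, the anaphylatoxin receptor gene C5ar1 by 1.10 ± 0.22, the properdin gene Cfp by 0.61 ± 0.16 and C3 by 0.32 ± 0.09 on the log2 scale. Of 6 tested inflammatory cytokine genes, Cxcl1 (-1.78 ± 0.24) and Ptgs2 (-2.06 ± 0.42) fell and 4 did not pass, among them Il1b (0.02 ± 0.49) and Tnf (-0.24 ± 0.44).

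In 3 further lists few or no genes passed. Of 13 Fc receptor and ITAM signalling genes, Fcgr2b fell and 12 did not pass (median 0.09). None of 7 genes of MHC class II presentation passed, and Ciita, their master regulator, had the smallest p (0.79 ± 0.23, edgeR adjusted p = 0.0589). Of 7 lipid-associated macrophage genes, Ctsd (-0.24 ± 0.05) and Lpl (-0.21 ± 0.05) fell and 5 did not pass, but heart muscle also expresses both.

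Single libraries mattered here too. In the 6 leave-one-out fits Ccl2, Id3, Nr4a1, Ace, C7, Cxcl1 and Esam were called in all 6, Fcgr2b in 5 and C5ar1 and Ctsd in 4. Ccl7, Ccl6, Stab1 and Lpl were called in 3, Ly6c2, C3, Cfp, Ptgs2 and Tie1 in 2, Mertk in 1 and Fcna in 0.

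**Figure D5:**
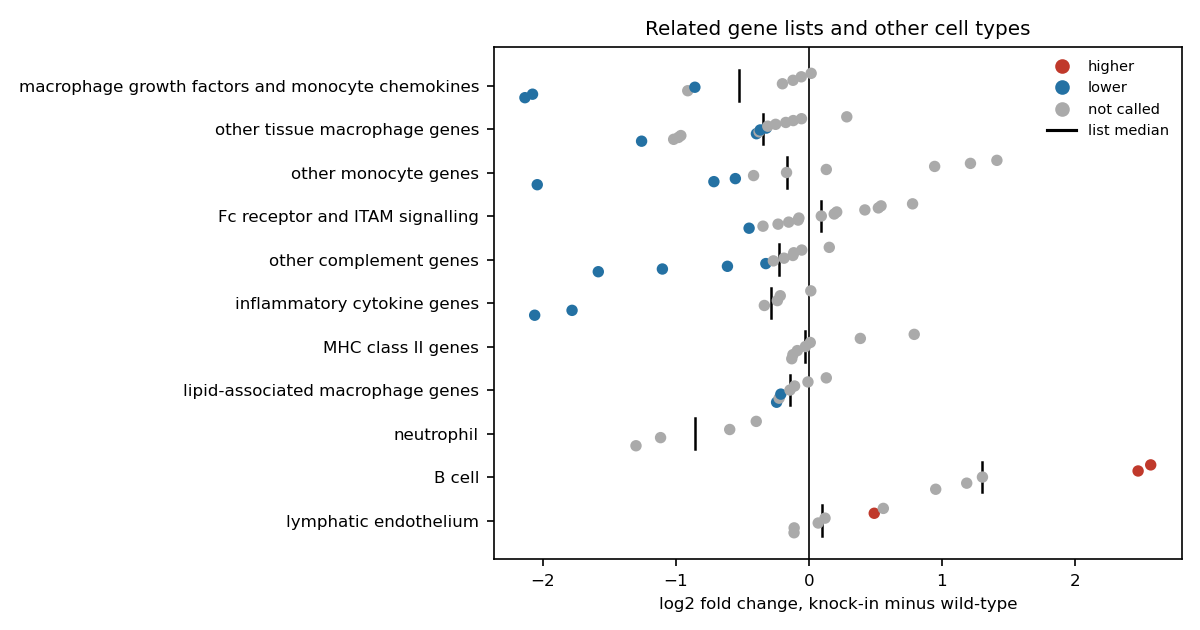
Log2 fold change, knock-in minus wild-type, of the tested genes of 8 related lists and of neutrophil, B cell and lymphatic endothelial markers, with rises in red, falls in blue, genes that did not pass in grey and a black bar at each list median. The chemokine list reaches -2.13 with Ccl7, and the B cell markers all lie above 0.

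Several members are shared with other cells, whose markers were read in the same libraries. Of 10 neutrophil markers, which bear on Lyz2 and Itgam, 4 were tested and none passed, Ly6g had 0 counts in all 6 libraries, and the list summed to 2.94, 2.16 and 3.82 CPM in knock-in mice, against 2.14, 5.07 and 8.42 CPM in wild-type mice. The genotypes overlapped in that sum, and all 4 tested markers had log2 fold changes below 0 (median -0.85). The part of neutrophils in the fall of Lyz2 and Itgam was not tested. Lymphatic endothelial markers, which bear on Lyve1, summed to 88.2 to 95.3 CPM in knock-in mice, against 68.4 to 76.9 CPM in wild-type mice. Of these 6, Prox1, which heart muscle also expresses, rose (0.49 ± 0.05) and 5 did not pass. Without Prox1, an omission chosen after seeing the data, the sums were 34.7, 32.9 and 30.4 CPM in knock-in mice, against 29.5, 36.5 and 26.8 CPM in wild-type mice, and the genotypes overlapped. The part of lymphatic endothelium in the fall of Lyve1 was not tested.

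Lymphocyte markers bear on Ccr2, Cx3cr1 and Cd52. The 6 B cell markers summed to 4.21, 2.42 and 5.18 CPM in knock-in mice, against 1.52, 0.715 and 1.78 CPM in wild-type mice. Of 5 tested, all had log2 fold changes above 0 and 2 rose (40%, against 4.00% of all genes). Among these was Pax5, a transcription factor of B cells, read from 2 to 42 counts (2.48 ± 0.51, edgeR adjusted p = 0.0172). Pax5 was called in 3 of the 6 leave-one-out fits. Knock-in replicate 2, with the highest Ccr2 and Cx3cr1, had the lowest B cell sum of its genotype. The 9 T and NK cell markers summed to 2.61, 1.84 and 2.40 CPM in knock-in mice, against 1.36, 1.04 and 2.00 CPM in wild-type mice. Only Cd3d had enough counts to test (-0.95 ± 0.34, edgeR adjusted p = 0.113), and it alone made up 1.05, 0.596 and 1.44 CPM of the wild-type sums. The 8 others did not share its direction. Cd3e, Cd3g, Cd2, Lck and Cd8a had every knock-in mouse above every wild-type mouse in CPM, from 0 to 20 counts per library. Nkg7, Klrb1c and Gzma overlapped. Of the 8 dendritic cell markers 2 were tested and neither passed, Itgax having the smallest p (1.10 ± 0.39, edgeR adjusted p = 0.107). Every knock-in mouse was above every wild-type mouse for Itgax and for the untested Clec9a, read from 0 to 13 counts per library. For Zbtb46 every knock-in mouse was below, and the other dendritic cell markers overlapped. The part of these cells in the rise of Ccr2 and Cx3cr1 was not tested.

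Genes shared by all leukocytes did not pass in any of 7 cases (median 0.02). Ptprc, the common leukocyte phosphatase, was at 5.69 ± 0.364 CPM in knock-in and 4.52 ± 0.500 CPM in wild-type (0.33 ± 0.12, edgeR adjusted p = 0.106). Fold changes of the list were above 0 for 4 genes and below 0 for 3.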

How the data were processed

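The authors deposited estimated counts, 1 row per symbol and 1 column per mouse, obtained with kallisto 0.44.0 and GRCm38 after bcl2fastq 2.19 according to the submitters' processing notes. All values were whole. Transcript annotation, summing to symbols and strand use are not stated. Columns were tied to mice through the sample number and code in the titles, and no sample column was left unused.

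The counts needed no rounding. edgeR 4.0.16 (R 4.3.3) was run with filterByExpr (minimum count 10), which kept 13485 genes and 99.96% of counts, TMM scaling, and the quasi-likelihood F test of genotype (two-sided, no covariate), with Benjamini-Hochberg adjustment over all genes tested. A gene was called, and is said to have risen or fallen, at an adjusted p below 0.05. Fold changes are log2, knock-in over wild-type, ± SE, and 95% intervals use the test's degrees of freedom. The labels do not say more of how replicates were taken, so p-values measure the spread between these samples, which may be partly technical; libraries within a genotype differed by far more than sampling noise (chi-square per degree of freedom 7.98 to 17.5). Exon lengths and positions are from GENCODE M21.

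The members, the other gene lists and the alternatives (DESeq2 1.42.0, limma-voom with limma 3.58.1, other scalings and filters, robust dispersions, each library left out) were chosen with earlier results of these data known. Named are all members, up to 3 called genes of each other list by smallest p or otherwise the one with the smallest p, Rrad and Nnt; any other list gene is named as an example chosen after its values were seen. Some genes are not reported here.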

Additional observations from a re-analysis of the deposited data

How the results depend on the processing

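The number of members that fell was also 10 with DESeq2, limma-voom, DESeq2 size factors and upper-quartile factors. It was 10 again with mitochondrial counts removed, a filter of 50 counts in 3 libraries and robust dispersions. With no filter 12 members fell, and with library size alone 13. The 10 were not always the same genes. With DESeq2, F13a1 took the place of Lyve1 (adjusted p = 0.0463). With robust dispersions, Folr2 took its place (edgeR adjusted p = 0.0448). The rise of 2 members became 1 with limma-voom, 1 with robust dispersions and 0 with the filter of 50 counts, which removed Ccr2 and Cx3cr1 from the test. Scaling by library size alone moved the calls over the whole table to 227 higher and 1177 lower, against 540 and 675 with TMM. Leaving out 1 library gave 2 to 15 members lower, 0 to 2 higher, 136 to 601 genes higher and 202 to 777 lower, and a resident median from -0.61 to -0.20, a recruited median from 1.10 to 1.79 and a panel median from -0.36 to -0.24. Direction turned only in members that did not pass: Mpeg1 (-0.03059 with library size alone; -0.06087 to 0.1491 leaving out 1 library), Spi1 (-0.07032 to 0.293 leaving out 1 library), Aif1 (-0.0301 to 0.3804), Cd52 (-0.01212 to 0.3606) and Tyrobp (-0.2134 to 0.008025). The cause was not tested. No paired analysis was possible because the labels give the genotypes no shared replicate numbers. With 3 mice per genotype and under 100 counts per library for Ccr2, Cx3cr1, Timd4 and Spi1, small differences in these genes were not detectable.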

Other observations

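Of 8 fibroblast and 8 cardiomyocyte markers none passed, with medians of -0.02 and 0.05 on the log2 scale, and the smallest p belonged to Pdgfra (0.21 ± 0.06, edgeR adjusted p = 0.0635) and Tnnt2 (0.14 ± 0.04, edgeR adjusted p = 0.0586). None of 5 tested mast cell markers passed, Kit having the smallest p (0.43 ± 0.21, edgeR adjusted p = 0.221), and none of 3 tested platelet markers, with Ppbp the nearest (1.35 ± 0.64, edgeR adjusted p = 0.223). Erythroid transcripts varied between mice of the same genotype, with summed levels of 5300, 602 and 2829 CPM in knock-in mice, against 2226, 585 and 739 CPM in wild-type mice, and none of the 6 passed (edgeR). Knock-in replicate 2, with the highest Ccr2 and Cx3cr1 of the panel, had the lowest erythroid sum of its genotype.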
